A study of Mus musculus with 24 samples.

Results

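The receptors described here are the 47 odorant receptor genes of the table whose symbols run from Olfr90 to Olfr138, the odorant receptors that lie beside the major histocompatibility complex (MHC) of the mouse. They were chosen by symbol alone, with or without the suffix -ps, from 1175 Olfr symbols among 45706 genes. Of the 49 numbers in that range, Olfr100 and Olfr126 have no row. All 47 genes lie on chromosome 17 between bases 37083871 and 38336643 of GRCm38, 25 on the plus strand and 22 on the minus strand, and the annotation (GENCODE M21) lists all of them as protein coding, including the 3 with the suffix -ps (Olfr104-ps, Olfr105-ps and Olfr106-ps).

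The data are bulk RNAseq of the main olfactory epithelium (OE) of untreated mice, 12 WT and 12 iRhom2-/-, with 3 mice per genotype at 5, 8, 10 and 30 weeks of age. iRhom2, encoded by Rhbdf2, is a membrane protein that controls the maturation of the protease ADAM17. The iRhom2-/- mice carry a targeted Rhbdf2 allele in every cell, with LacZ expressed from the iRhom2 promoter. The labels give the strain of both genotypes as mixed, the study's methods name 129Sv and C57BL/6 for the iRhom2-/- line, and which form of the MHC region each mouse carried is not given in the sources used here. The 8-week and 10-week mice are known one by one. The columns of the 5-week and 30-week mice give the genotype but not the age, so these 6 WT and 6 iRhom2-/- mice are described as "5 or 30 weeks", and a difference between those 2 ages cannot be told apart from a difference between mice. The age groups below are thus 8 weeks, 10 weeks, and 5 or 30 weeks. The labels tie the sequencing submission to the ages, so a difference between age groups cannot be told apart from one between submissions.

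Odorant receptors are G protein-coupled receptors that olfactory sensory neurons (OSNs) use to detect volatile molecules. A mature OSN expresses a single receptor gene, from a single allele, so the RNA of a receptor in a bulk sample reflects how many neurons chose it and how much of it each makes. In bulk samples such as these, fewer cells of a type and less RNA per cell cannot be told apart. The cluster beside the MHC is interleaved with class I genes of the H2-M family, and receptor abundance is known to differ between inbred mouse strains.

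Library totals ranged from 25333822 to 48660394 counts, with a median of 34233812. Rhbdf2 counts were 556 to 1034 in WT and 220 to 637 in iRhom2-/- libraries, and in each age group all iRhom2-/- libraries had lower CPM (counts scaled to a common library size) than all WT libraries. Over the 24 mice its log2 fold change was -1.08 (SE 0.09), with an adjusted p of 9.779e-08 by the quasi-likelihood test of edgeR, adjusted by Benjamini-Hochberg over all genes. Omp, the marker of mature OSNs, had 124940 to 337000 counts in each library. The third WT mouse of 8 weeks is labelled female, but had 9 counts of Xist and 1994 of Ddx3y, whereas the 2 females of 10 weeks had 6814 and 9230 counts of Xist and 2 and 3 of Ddx3y. The library labelled WT 8 weeks, replicate 3, thus goes against its sex label, and the 8-week sums, calls, non-overlap counts and leading fold changes are also given without it.

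Many of these receptors are close copies of each other, which bears on how well reads can be assigned to them. The coding sequence of 40 of the 47 is closest to that of another receptor of the cluster, and 29 have a receptor at 90% identity or more (identity is the share of bases left unchanged by an alignment over the longer sequence; the median to the closest receptor was 91.7%). Olfr110 and Olfr111 are the closest pair, with 18 differences in 951 bases, 98.1% identity and an identical run of 416 bases. Olfr136 and Olfr138 differ at 44 of 936 bases, 95.3% identity, and share no identical run over 80 bases. Reads within identical runs are divided by estimate, so the split between Olfr110 and Olfr111 is uncertain. Olfr115 and Olfr116 overlap on the same strand and their reads are uncertain for that reason. The 60 coding bases with the most differences in each of these 2 pairs are shown because the results below turn on Olfr111 and Olfr138. They are bases 817 to 876 of the coding sequence for the first pair (chr17:37499469-37499528 and chr17:37530795-37530854) and bases 455 to 514 for the second (chr17:38335613-38335672 and chr17:38275227-38275286), all on the plus strand of GRCm38, and capitals mark the bases that differ within a pair.
Olfr110: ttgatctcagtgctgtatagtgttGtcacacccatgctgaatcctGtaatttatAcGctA
Olfr111: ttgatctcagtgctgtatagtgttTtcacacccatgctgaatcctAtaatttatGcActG
Olfr136: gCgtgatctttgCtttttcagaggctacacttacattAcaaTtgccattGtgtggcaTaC
Olfr138: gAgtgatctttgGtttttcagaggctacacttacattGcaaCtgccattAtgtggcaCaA

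Receptor promoters often hold sites for homeodomain proteins such as Lhx2 and for the O/E (Olf1/Ebf) factors, which take part in receptor choice. RefSeq windows of 250 bases before to 50 bases after the gene start (GRCm38.p6) were found for 35 of the 47 receptors. RefSeq and GENCODE starts lay within 50 bases of each other for 3 of these receptors, with a median distance of 3309 bases, so most windows may not be at the start that OSNs use. The homeodomain core TAATNA, searched on both strands, was in 17 of the 35 windows (48.6%), in 66.5% of 913 windows of other receptors and in 26.5% of all 32851 windows. The core of the O/E site was in 4 of the 35 windows (11.4%), in 0.11% of the windows of other receptors and in 0.904% of all windows. In Olfr98, Olfr99 and Olfr108 this core stands beside a homeodomain core, in a stretch that Olfr107 also holds without the O/E core. No window of another gene held the part of the stretch from the end of the O/E core to the homeodomain core. It is shown in 40 bases for the 4 genes, read 5' to 3' on each gene's strand with both cores in capitals, at chr17:37263822-37263861 (minus strand, Olfr98), chr17:37280583-37280622 (minus, Olfr99), chr17:37445356-37445395 (plus, Olfr108) and chr17:37405345-37405384 (plus, Olfr107). These 4 receptors are close paralogs, and a match is a description of the letters, not of a bound site.
Olfr98: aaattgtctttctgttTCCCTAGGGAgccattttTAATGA
Olfr99: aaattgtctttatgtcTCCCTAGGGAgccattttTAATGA
Olfr108: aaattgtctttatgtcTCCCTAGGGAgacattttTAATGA
Olfr107: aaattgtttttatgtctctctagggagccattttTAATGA

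All 47 receptors had counts above 0 in at least 1 mouse, and 37 were above 3 counts (the floor used here, 0.0622 to 0.112 CPM depending on the library) in each of the 24 mice. Their mean levels over the 24 mice ran from 0.015 to 8.47 CPM with a median of 1.17 CPM, beside a median of 1.06 CPM for the 908 other receptors that passed the filter on low counts. Per kilobase of annotated exon, Olfr131 was the highest at 4.69 ± 0.805 CPM per kb (SD, n = 24), followed by Olfr110 at 2.88 ± 0.502, Olfr121 at 2.85 ± 0.825, Olfr138 at 2.36 ± 2.07 and Olfr136 at 1.33 ± 0.233 CPM per kb. Olfr110, Olfr121 and Olfr138 differed by less than their spread over mice. Olfr131, with 183 to 513 counts, and Olfr136 were the steadiest of these, with the highest mouse at 1.89 times and 1.79 times the lowest. The lowest levels were those of Olfr108, Olfr113 and Olfr98, the 3 receptors that did not pass the filter.

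The summed level of the 47 receptors was 68.8 to 90.03 CPM as group means and made up 3.64% to 5.32% of all odorant receptor counts in single mice. At 8 weeks the sum was 70.9 ± 4.64 CPM in WT and 90.03 ± 7.86 CPM in iRhom2-/- mice (SD, n = 3 each), and the sum of all receptors was 1582 ± 216 and 1993 ± 58.7 CPM, so that the share of the 47 was 4.52% ± 0.449 and 4.51% ± 0.275. Without the library that goes against its sex label, the WT sum was 71.6 ± 6.34 CPM, that of all receptors 1538 ± 286 CPM and the share 4.69% ± 0.460 (n = 2). At 10 weeks the sum was 87.9 ± 5.86 CPM in WT and 68.8 ± 7.94 CPM in iRhom2-/- mice, and the share was 4.68% ± 0.169 and 3.91% ± 0.237, without overlap between the groups. At 5 or 30 weeks the sum was 71.7 ± 9.53 CPM in WT and 74.3 ± 6.56 CPM in iRhom2-/- mice (n = 6 each), and the shares, 4.71% ± 0.404 and 4.60% ± 0.641, overlapped.

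**Figure D1:**
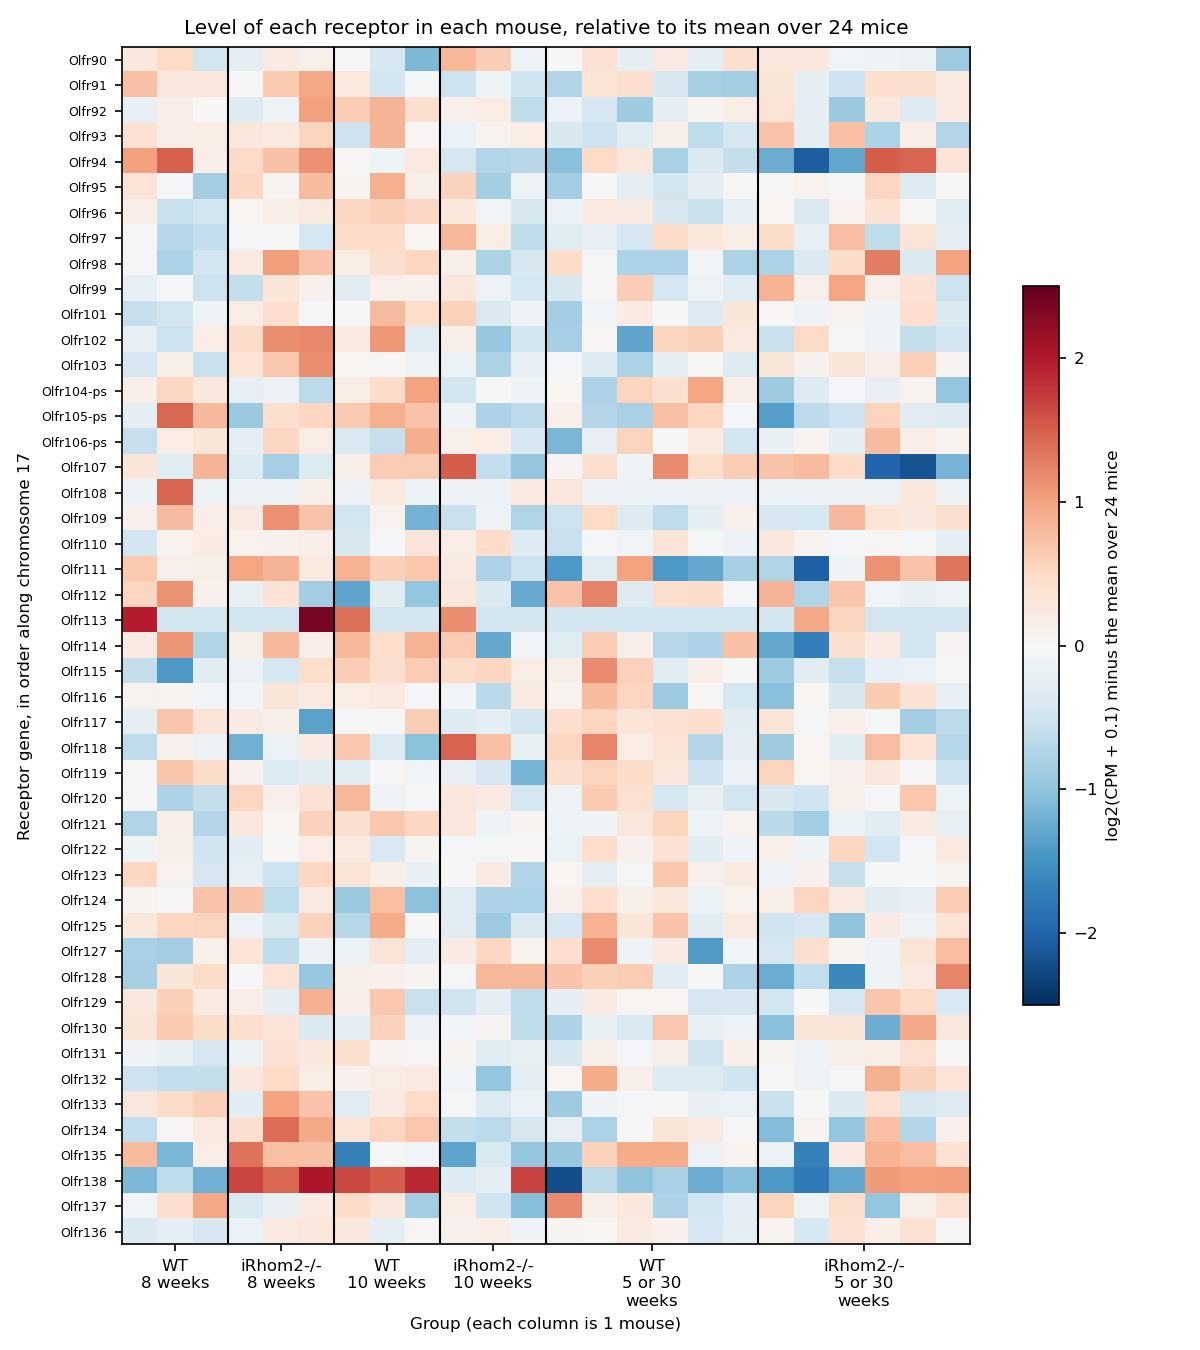
Heat map of the 47 receptors (rows, in order along chromosome 17) in the 24 mice (columns, grouped by genotype and age), coloured by log2(CPM + 0.1) minus the receptor's mean over the 24 mice. Olfr138 is above its mean in 10 mice that do not form a genotype or an age group, and Olfr107, Olfr94 and Olfr111 differ between mice of the same group.

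Olfr138 (chr17:38261035-38276410) had the clearest pattern, with a gap between high and low mice that did not follow genotype. At 8 weeks its level was 1.26, 1.83 and 1.19 CPM in the 3 WT mice and 9.42, 7.95 and 12.1 CPM in the 3 iRhom2-/- mice. At 10 weeks the order was different, with 9.28, 8.43 and 10.9 CPM in the WT mice and 2.27, 2.41 and 9.54 CPM in the iRhom2-/- mice. The high iRhom2-/- mouse of 10 weeks was the female of that group. At 5 or 30 weeks the 6 WT mice ranged from 0.543 to 1.80 CPM with a median of 1.37, whereas of the 6 iRhom2-/- mice, 3 had 0.773 to 1.12 CPM and 3 had 5.98 to 6.11 CPM. The largest step between neighbours in the order of the 24 mice, 1.29 on the log2 scale, thus separated 10 mice at 5.98 CPM or more from 14 mice at 2.41 CPM or less. The lower 14 themselves ranged from 0.543 to 2.41 CPM. The step was found in these same values, and whether there are 2 distinct levels was not tested. The 10 mice were the 3 iRhom2-/- mice of 8 weeks, the 3 WT mice of 10 weeks and 4 other iRhom2-/- mice. Its close paralog Olfr136 ranged from 2.56 to 4.58 CPM over all 24 mice.

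As a result, the log2 fold change of Olfr138 between genotypes had no common direction across ages. It was 2.78 (SE 0.69, adjusted p = 0.0643) at 8 weeks (2.65, adjusted p = 0.144, without the library that goes against its sex label), -1.003 (SE 0.65, adjusted p = 0.773) at 10 weeks and 1.43 (SE 0.49, adjusted p = 0.222) at 5 or 30 weeks. The 10-week value depends on the third iRhom2-/- mouse, the high one, without which it was -2.02 (adjusted p = 0.446), and it was -0.55 with receptors alone in the fit. The test of whether the difference between genotypes differed between the 3 age groups gave an adjusted p of 0.2255 (edgeR), the smallest of the 44 receptors tested. With 5 and 30 weeks in 1 group, it does not test a trend with age. Genotype accounted for 9.18% of the sum of squares of its log2 CPM, age group for 29.6%, their interaction for 27.7% and mice within groups for 33.4%. These shares were not corrected for degrees of freedom.

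Olfr107, Olfr94 and Olfr111 also varied between mice of the same group. In the 3 iRhom2-/- mice of 5 or 30 weeks with the high Olfr138 level, Olfr107 had 6, 5 and 18 counts, and in the other 3 it had 51, 60 and 47. Olfr94 was the other way round, with 31, 30 and 17 counts in those 3 mice and 2, 0 and 2 in the other 3. Olfr111 had 31, 23 and 52 counts in those 3 mice and 6, 1 and 12 in the other 3, while its near-identical copy Olfr110 ranged from 141 to 170 counts over all 6. Olfr94, Olfr107, Olfr111 and Olfr138 are 4 of the 5 receptors of the cluster with the largest spread between mice. They are described for that reason. Olfr135, also among these 5, had 14, 13 and 13 counts in those 3 mice and 5, 0 and 8 in the other 3. Further receptors separated these sets, in either direction. Olfr132 had 110, 89 and 104 counts against 53, 57 and 58, and Olfr90 had 42, 41 and 33 against 52, 58 and 45. Olfr131 and Olfr136, among others, did not separate them. The share of all genes that separated these sets was not counted. The class I gene H2-M10.3, outside the receptor family, had 2, 2 and 5 counts in the mice with the high Olfr138 level and 28, 80 and 54 in the other 3. Likewise, H2-M3 had 54, 40 and 49 counts against 129, 86 and 130, and H2-M2 had 9, 20 and 12 against 23, 42 and 29. Ubd, also on chromosome 17, went the other way, with 36, 52 and 38 against 19, 7 and 19, and Trim10 overlapped. No naming rule used here covers these genes, H2-M10.3 included. In other groups H2-M10.3 did not follow Olfr138, since it had 43, 59 and 57 counts in the WT mice of 10 weeks, all high for Olfr138, and 15, 19, 17, 117, 121 and 78 in the WT mice of 5 or 30 weeks, all low. Whether each set of 3 is 1 age group is not given by the column names. The sets were seen in the values, so no test was made between them.

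The 4 receptors did not split in the same way in the other groups. At 10 weeks Olfr107 had 113 counts in 1 iRhom2-/- mouse and 19 and 17 in the others, and the 2 with the low Olfr138 level were 1 with 113 and 1 with 19. Olfr111 at 5 or 30 weeks had 37 counts in 1 WT mouse, 3 to 10 in the other 5 WT mice, and all 6 had a low Olfr138 level. At 8 weeks Olfr94 had 34, 47 and 15 counts in WT and 23, 28 and 36 in iRhom2-/- mice, so that the groups overlapped although Olfr138 separated them.

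**Figure D2:**
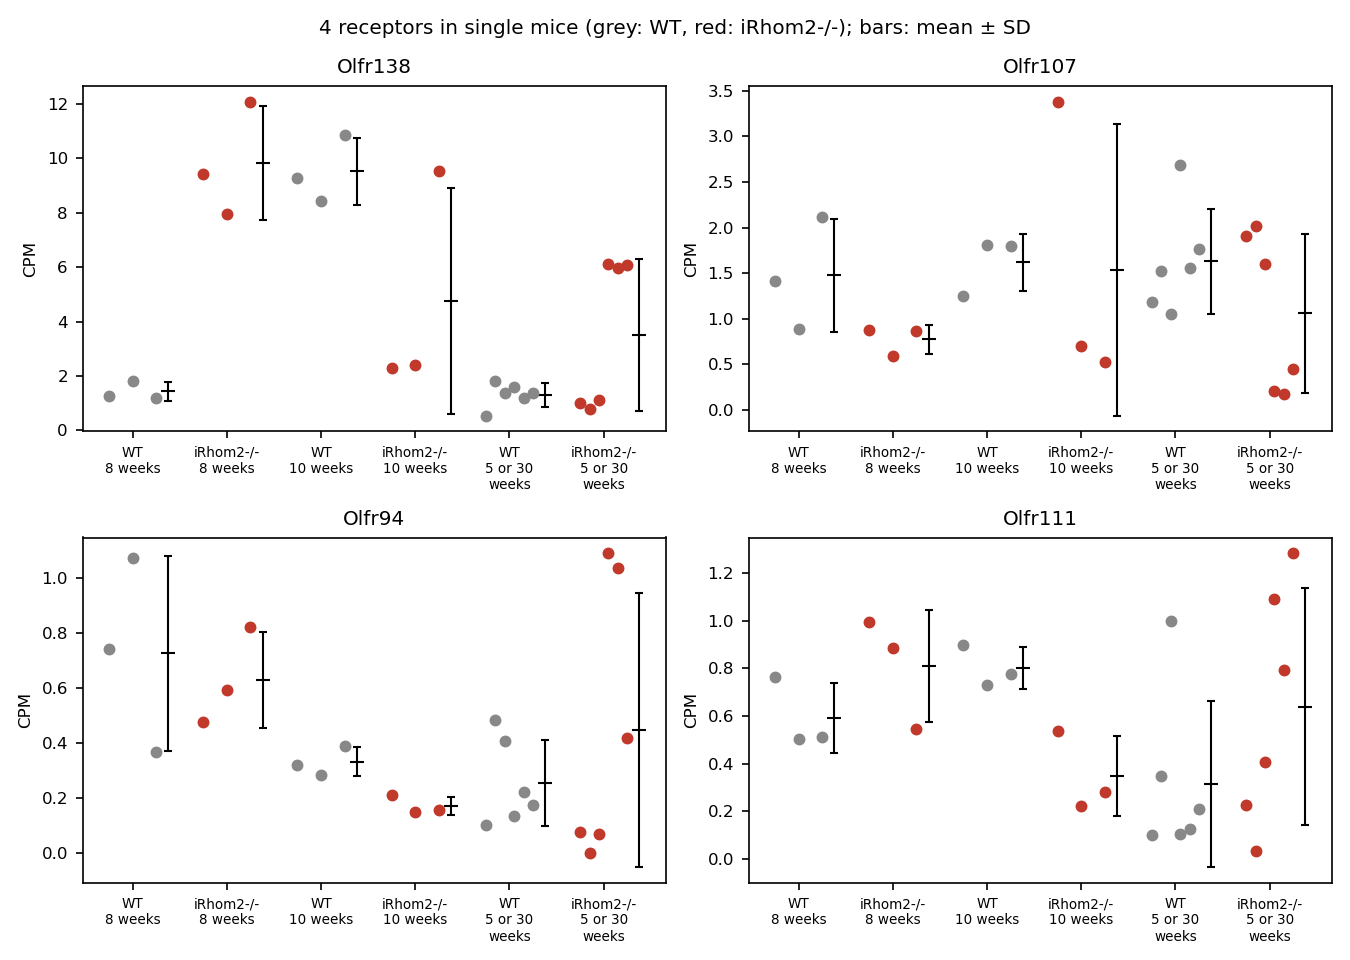
CPM of Olfr138, Olfr107, Olfr94 and Olfr111 in single mice (points, WT grey, iRhom2-/- red) by genotype and age, with the mean ± SD of each group as a bar to its right. Olfr138 lies at 5.98 CPM or more in 10 mice and at 2.41 CPM or less in 14, and the 6 iRhom2-/- mice of 5 or 30 weeks spread widely in all 4 receptors, which were chosen for their spread.

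Spread between mice of the same group was not larger for the cluster as a whole than for other receptors. The SD of log2 CPM within groups had a median of 0.47 (0.23 to 1.06) over the 44 receptors tested, 0.58 over 908 other receptors and 0.25 over 19811 other genes. Since spread falls with level, it was also set out by level. The medians of the cluster were 0.61, 0.47 and 0.37 below 0, from 0 to 1 and above 1 log2 CPM, beside 0.70, 0.52 and 0.44 for other receptors. Mice within groups took up a median of 67.6% of the sum of squares of a receptor in the cluster. Age group took up 11.5%, genotype 3.38% and their interaction 7.24%. In the same order, the medians for other receptors were 66.9%, 14.6%, 2.78% and 8.67%. These shares were not corrected for degrees of freedom, most of which lie within groups. A large share within groups is thus no sign by itself that levels follow the mouse. That share also holds any difference between ages pooled in the same age group. The receptors of the cluster with the largest spread were Olfr94 (SD 1.06), Olfr135 (1.00), Olfr111 (0.99), Olfr107 (0.96) and Olfr138 (0.91). The first 3 are at low levels, where 15 of 153, 23 of 119 and 17 of 185 other receptors within 0.5 log2 CPM of their level had a larger SD. Of the other receptors at the level of Olfr107, 2 of 273 had a larger SD than Olfr107, and at the level of Olfr138, 1 of 124 had a larger SD than Olfr138.

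Olfr113 was at 0 counts in 18 of the 24 mice, which allows up to 3 counts in each, and had 20 counts in 1 WT and 27 in 1 iRhom2-/- mouse of 8 weeks while the other 2 mice of each group had 0. Olfr108 was likewise at 0 in 18 mice, and its highest count was 9. Olfr135 had 0 to 35 counts. Intervals and floors cover counting error only.

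**Figure D3:**
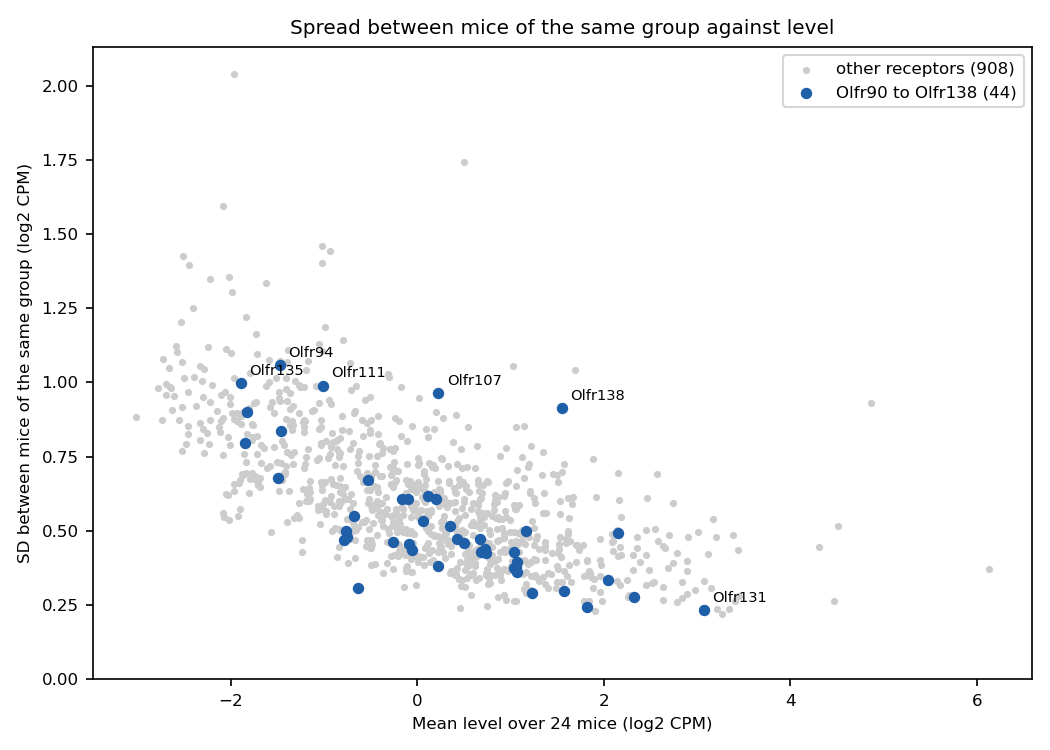
SD of log2 CPM between mice of the same group against the mean level over 24 mice, for 44 receptors from Olfr90 to Olfr138 (blue) and 908 other receptors (grey). Olfr138 and Olfr107 stand above nearly all receptors of their level, and most of the cluster lies among or below the other receptors.

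Receptors of the cluster were no more alike across mice than other receptors by the median pair. Over 946 pairs, the correlation of deviations from the group means had a median of 0.09 and quartiles of -0.11 and 0.27, beside 0.09, -0.13 and 0.31 over 411778 pairs of other receptors. Pairs of the cluster less than 50 kb apart had a median of 0.17 (61 pairs) and pairs over 600 kb apart 0.10 (257 pairs). Other receptors less than 50 kb apart had a median of 0.28 (1310 pairs). These are descriptions over 24 shared libraries, in which depth and the total of receptor RNA are common to all pairs.

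The comparison of genotypes asked whether receptors of the cluster differ between WT and iRhom2-/- OE. None of the 44 receptors tested passed an adjusted p of 0.05 over all 24 mice with age group as a covariate (edgeR quasi-likelihood test), where 1.13% of 20763 genes did. At an unadjusted p under 0.05 there were 6 receptors, 2 higher and 4 lower in iRhom2-/- mice. This is 13.6% of the 44, beside 12.4% of all genes and 13.4% of other receptors. DESeq2 and edgeR's likelihood ratio test each called 1 receptor, Olfr104-ps, and each also did without the library that goes against its sex label. The median log2 fold change was 0.02 for the 44 receptors and 0.05 for the other receptors, and 23 of the 44 had a positive value.

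Olfr104-ps came closest to the threshold and kept its direction at each age. In WT mice it had 0.871, 1.16 and 0.950 CPM at 8 weeks and 0.899, 1.11 and 1.68 CPM at 10 weeks. In iRhom2-/- mice it had 0.664, 0.696 and 0.455 CPM at 8 weeks and 0.538, 0.779 and 0.713 CPM at 10 weeks, below all WT mice of the same age. At 5 or 30 weeks the groups overlapped, with 0.415 to 1.65 CPM (median 0.961) in WT and 0.346 to 0.829 CPM (median 0.636) in iRhom2-/- mice. Its log2 fold change over 24 mice was -0.77 (SE 0.20, adjusted p = 0.0566). The call depends on the method, since DESeq2 gave an adjusted p of 0.01336 and the fit of receptors alone 0.0363. Without the library that goes against its sex label the log2 fold change was -0.78 (adjusted p = 0.0827, edgeR). Its neighbour Olfr105-ps had a log2 fold change of -0.77 (SE 0.29, adjusted p = 0.238), and at 10 weeks 1.06, 1.27 and 1.11 CPM in WT against 0.598, 0.334 and 0.372 CPM in iRhom2-/- mice. At 8 weeks and at 5 or 30 weeks the genotypes overlapped in Olfr105-ps.

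The other receptors with the smallest p over 24 mice had small differences, none past the threshold. Olfr117 had a log2 fold change of -0.53 (adjusted p = 0.203, edgeR), Olfr125 of -0.56 (adjusted p = 0.266) and Olfr119 of -0.32 (adjusted p = 0.420). In the other direction were Olfr138 at 1.18 (SE 0.46, adjusted p = 0.268; 0.68, adjusted p = 0.902, with no term for age group), Olfr103 at 0.50 (SE 0.20, adjusted p = 0.293), Olfr136 at 0.20, Olfr99 at 0.28 and Olfr109 at 0.31 (adjusted p from 0.488 to 0.649 for the last 3). Olfr103 differed in direction between ages. It had 0.414, 0.661 and 0.365 CPM in WT and 0.767, 0.991 and 1.43 CPM in iRhom2-/- mice at 8 weeks. At 10 weeks it had 0.610, 0.602 and 0.538 CPM in WT and 0.509, 0.297 and 0.496 CPM in iRhom2-/- mice. At 5 or 30 weeks it had 0.297 to 0.602 CPM (median 0.464) in WT and 0.617 to 0.933 CPM (median 0.707) in iRhom2-/- mice. The genotypes did not overlap in any of these age groups, and the test of a change between age groups gave an adjusted p of 0.285 (edgeR).

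At 8 weeks no receptor passed the adjusted threshold (0.506% of genes did). A positive log2 fold change was found for 28 of the 44, beside 74.1% of other receptors. The unadjusted p was under 0.05 for 9 of 44, all positive (20.5%, beside 14.5% of genes and 13.55% of other receptors). They were Olfr138, Olfr103, Olfr132 (log2 fold change 0.94), Olfr134 (1.11), Olfr121 (0.70), Olfr102 (1.20), Olfr120 (0.82), Olfr136 (0.47) and Olfr131 (0.41). DESeq2 called Olfr138, and the likelihood ratio test Olfr138 and Olfr103. The 9 became 5 without the second WT mouse, 4 without the third iRhom2-/- mouse, 7 without the library that goes against its sex label and 5 with receptors alone in the fit. Without that library 45 receptors passed the filter, and the 7 included Olfr138 and Olfr103 (log2 fold change 0.96, adjusted p = 0.27, edgeR), Olfr132 (0.91), Olfr134 (1.29) and Olfr102 (1.41), along with Olfr115 and Olfr101, but not Olfr121 (0.53), Olfr120 (0.72), Olfr136 (0.42) or Olfr131 (0.30). DESeq2 then called Olfr138, and the likelihood ratio test called none (8 at an unadjusted p under 0.05). The genotypes did not overlap for 10 of the 44 receptors tested (8 higher, 2 lower, 22.7%), beside 25.7% of genes tested, and did not in Olfr98, which was not tested. Without the library that goes against its sex label these were 14 of the 44 (10 higher, 4 lower, 31.8%), beside 34.7% of genes. Marker lists of mature OSNs, which express these receptors, and of other cell types also differed between these groups. The summed level of 10 markers of mature OSNs was 9517 to 11980 CPM in WT and 14040 to 17860 CPM in iRhom2-/- mice, with 9 of 10 at a positive fold change. That of 10 lymphocyte markers was 32.1 to 98.3 CPM and 17.2 to 26.8 CPM, with 10 of 10 at a negative fold change. Without the library that goes against its sex label the WT sums were 9517 to 11730 CPM and 32.1 to 98.3 CPM, with 9 of 10 and 10 of 10 again in those directions. The summed level of 5 Bowman gland markers was 19970 to 64660 CPM in WT (32310 to 64660 CPM without that library) and 3033 to 4897 CPM in iRhom2-/- mice. Of these 5, 2 had a positive and 3 a negative fold change. The sum of 10 macrophage markers was 301.7 to 622.2 CPM in WT, with or without that library, and 177.1 to 299.8 CPM in iRhom2-/- mice. All 10 had a negative fold change, also without that library. The median log2 fold change was 0.16 for the 44 receptors and 0.37 for other receptors (0.14 and 0.40 without that library), and the part of these differences in the result was not tested.

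At 10 weeks no receptor passed the threshold with edgeR, DESeq2 or the likelihood ratio test (0.0963% of genes did with edgeR). The unadjusted p was under 0.05 for 5 of 44 (11.4%, beside 7.71% of genes and 13.2% of other receptors). Olfr90 had 1.64, 1.17 and 0.688 CPM in WT against 2.93, 2.52 and 1.46 CPM without iRhom2, and its log2 fold change was 0.98 (SE 0.36, adjusted p = 0.476). Olfr134 (-1.14), Olfr105-ps (-1.38), Olfr104-ps (-0.86) and Olfr96 (-0.61) had negative values. The 5 became 2 without the second WT mouse, 2 without the second and 3 without the third iRhom2-/- mouse, and 2 with receptors alone in the fit. Of the 44 receptors, 37 had a negative log2 fold change, with a median of -0.38, beside -0.35 for the other receptors. The genotypes did not overlap for 11 of the 44, all lower in iRhom2-/- mice, beside 12.9% of genes tested in either direction, and did not in Olfr98, which was not tested (3, 4 and 5 counts in WT and 3, 0 and 1 in iRhom2-/- mice). Of the 10 markers of mature OSNs, 9 had a negative log2 fold change (median -0.17), with summed levels of 14120 to 17860 CPM in WT and 12720 to 16210 CPM in iRhom2-/- mice. All 5 erythrocyte markers had a positive value (median 1.14), with 637 to 1553 CPM in WT and 517 to 6152 CPM in iRhom2-/- mice. The sum of 5 Bowman gland markers was 1930 to 12410 CPM in WT and 3555 to 178200 CPM (median 7795) in iRhom2-/- mice. Of these 5, 2 had a positive and 3 a negative value. The sums of horizontal basal cell markers, 162 to 175 CPM in WT and 197 to 211 CPM in iRhom2-/- mice, and of globose basal cell markers, 151 to 182 CPM and 190 to 197 CPM, did not overlap. The part of these differences in the result was not tested. The 8-week and 10-week comparisons thus ran in opposite directions for Olfr134, which had 0.762, 1.25 and 1.46 CPM in WT and 1.64, 3.39 and 2.46 CPM in iRhom2-/- mice at 8 weeks, and 1.54, 1.81 and 2.00 CPM in WT and 0.778, 0.741 and 0.899 CPM in iRhom2-/- mice at 10 weeks. The test of its change between the 3 age groups gave an adjusted p of 0.2559 (edgeR).

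**Figure D4:**
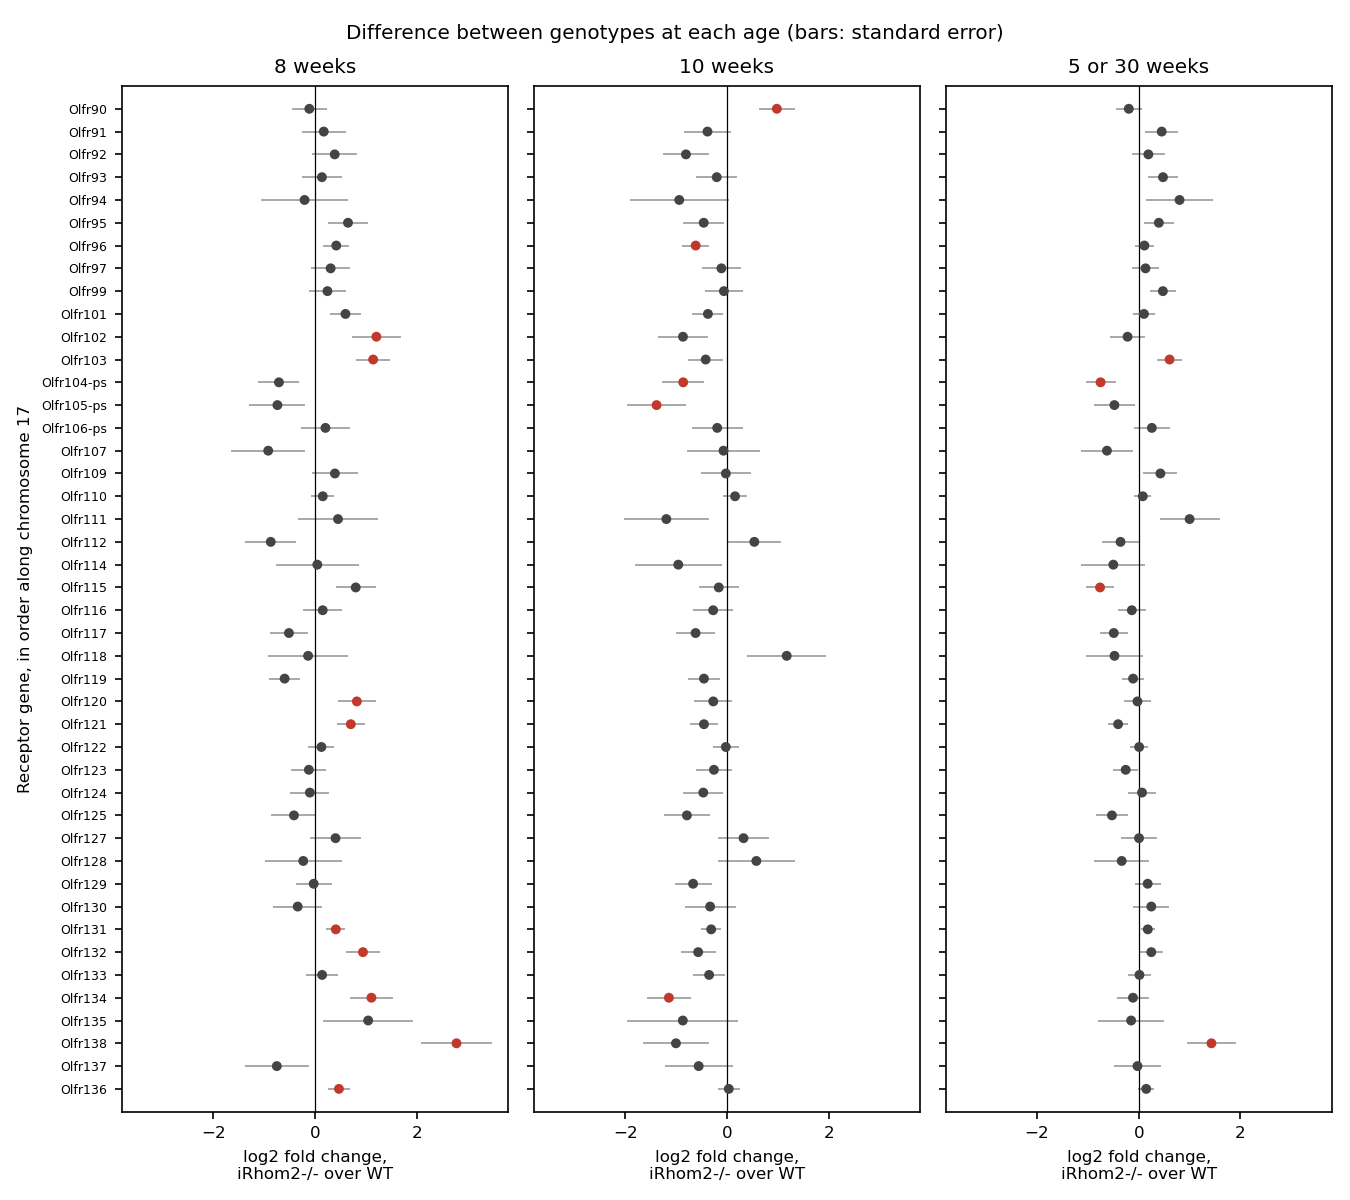
Log2 fold change of iRhom2-/- over WT (points) with its standard error (bars) for the 44 receptors tested, in order along chromosome 17, at 8 weeks, 10 weeks, and 5 or 30 weeks. Points in red have an unadjusted p under 0.05 (9, 5 and 4 receptors), and none passed an adjusted p of 0.05.

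At 5 or 30 weeks no receptor passed the threshold by any of the 3 methods (0.376% of genes did with edgeR). The unadjusted p was under 0.05 for 4 of 44 (9.09%, beside 13.1% of genes and 7.05% of other receptors). They were Olfr138, Olfr103 (log2 fold change 0.61), Olfr104-ps (-0.75) and Olfr115 (-0.76), of which Olfr115 shares reads with Olfr116 and was at -0.49 (adjusted p = 0.490, edgeR) without 1 WT mouse. Olfr103 was the 1 receptor whose genotypes did not overlap, beside 1.53% of genes. All 10 lymphocyte markers had a negative log2 fold change (median -1.09). Their summed levels were 22.7 to 48.6 CPM in WT and 13.2 to 33.4 CPM in iRhom2-/- mice. All 10 macrophage markers (median -0.32) and all 5 erythrocyte markers (median -0.31) also had negative values. Values were positive for 13 of 14 genes that act in receptor choice (median 0.15). The part of these differences in the result was not tested. In the 12 mice of 8 and 10 weeks as 1 set, no receptor passed by any of the 3 methods (0.175% of genes with edgeR). The unadjusted p was under 0.05 for 3 of 44 (6.82%, beside 11.2% of genes and 11.5% of other receptors). All 3 had a negative log2 fold change, and 1 receptor remained without the second WT mouse of 8 weeks. For a difference between genotypes that changed between the 3 age groups, no receptor passed (0.0144% of genes did, and DESeq2 called 1 receptor). The unadjusted p was under 0.05 for 10 of 44 (22.7%, beside 12.7% of all genes and 9.80% of other receptors). These 10 were Olfr138, Olfr134, Olfr121, Olfr103, Olfr115, Olfr132, Olfr102, Olfr96, Olfr90 and Olfr131. The 10 became 6 without the second iRhom2-/- mouse of 10 weeks and 5 with receptors alone in the fit.

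Genes of the MHC region were set beside the receptors in 2 ways. Of a list of 41 such genes, 31 were tested, and over 24 mice the log2 fold change was above 0 for 14 and below 0 for 17, with a median of -0.20. Of 109 genes within 1 Mb of the cluster that are not receptors, 22 were tested, 11 above 0 and 11 below, with a median of -0.02. For genes that act in receptor choice, such as Ebf and Lhx factors, 12 of 14 had a positive value with a median of 0.15. Ebf3, a factor of the O/E family, passed the threshold (log2 fold change 0.25, SE 0.05, adjusted p = 0.01396, edgeR), as did 1.13% of genes. Other lists of OSN genes also leaned positive. Values were above 0 for 8 of 8 immature OSN markers (median 0.18) and 9 of 10 mature OSN markers (median 0.11). Of 14 odorant signal transduction genes, 12 were above 0 (median 0.10). Strain background was described with a list of possible markers, of which 7 were tested. Of these, Gcnt7 was higher in iRhom2-/- mice at 8 weeks (log2 fold change 1.29, SE 0.15, adjusted p = 0.0002755), with 3289 to 3846 counts against 1226 to 1468. Nnt, which carries a deletion in C57BL/6J mice, was lower in WT mice at 10 weeks, with 244 to 272 counts against 531 to 675 in iRhom2-/- mice (log2 fold change 1.33, SE 0.16, adjusted p = 0.0003007). At both ages the groups thus differed in a gene of this list, which was chosen with earlier results of these data known. Whether Gcnt7 marks strain background in these mice was not tested. At 5 or 30 weeks Nnt ran from 11.53 to 21.61 CPM in WT and from 17.64 to 21.42 CPM in iRhom2-/- mice. The labels give a mixed strain for both genotypes, and the background of single mice is not given. Genotype and strain background thus cannot be told apart for any receptor of the cluster, at these 2 ages or at 5 or 30 weeks.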

How the data were processed

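RNA of the OE was sequenced as poly(A), strand-specific libraries. The authors ran an nf-core pipeline with STAR on GRCm38 and RSEM, and deposited these estimated counts per gene as whole numbers without normalization, for 24 libraries. Tool versions are not given here. The same deposited table holds the authors' own comparison of genotypes (fold changes, test statistics, p-values), which was not used.

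Counts were scaled by TMM and tested with edgeR 4.0.16 (quasi-likelihood) in R 4.3.3, after edgeR's filter on low counts by group (20763 genes, 952 receptors), with Benjamini-Hochberg adjustment over all genes and a threshold of 0.05. Models were age group plus genotype (24 mice), genotype within each age group (6 groups, 1 fit), 8 and 10 weeks with age as a covariate, and the interaction. DESeq2 1.42.0 was an alternative. CPM are counts over the TMM-scaled totals, and log2 CPM used a prior count of 2. Scripts were tested on simulated data. Of 24 columns, 12 were tied to 1 mouse and 12 to a group. No 2 libraries of a group agreed within sampling noise (lowest chi-square per degree of freedom 12.8). Nothing says how litters relate, so p-values measure the spread between these mice.

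Receptors and lists were chosen with earlier results of these data known. Receptors were named by rule: past a threshold, 5 smallest p each way, 5 highest levels per kb, 5 largest spreads, and those at 0 in 1 mouse and at 20 or more counts in another of its group. Other receptors were named where a count of calls is given, and Olfr96, Olfr98, Olfr99, Olfr107, Olfr108, Olfr110 and Olfr136 for their sequences.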

Additional observations from a re-analysis of the deposited data

Results flagged for a closer look

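Among 39 sets of 6 mice of 5 or 30 weeks, 3 had 1 mouse far from the others, where chance gives about 1 in 20. In WT mice, Olfr99 was highest at 2.51 CPM with the next mouse at 1.63 CPM, Olfr111 was highest at 1.00 CPM with the next at 0.346 CPM, and Olfr117 was lowest at 1.25 CPM with the next at 1.92 CPM. The genotypes of Olfr103 did not overlap at any age group and differed in direction, higher in iRhom2-/- mice at 8 weeks and at 5 or 30 weeks and lower at 10 weeks. The test of this change between age groups did not pass (adjusted p = 0.2854, edgeR).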

How the results depend on the processing

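Over all 24 mice, 1 receptor, Olfr104-ps, was called in place of 0 with DESeq2, the likelihood ratio test, a minimum of 10 counts in every library, adjustment over receptors alone, receptors alone in the fit, or a threshold of 0.1. It was also called when 1 WT or 1 iRhom2-/- mouse of 5 or 30 weeks was left out (adjusted p = 0.0202 and 0.0498 by edgeR, counts from 0 to 1 over the 24 mice left out in turn). At 8 weeks 1 receptor was called with DESeq2, a term for labelled sex, a threshold of 0.1 or the age alone, and 2 with the likelihood ratio test. Without the library that goes against its sex label, chosen after seeing the data, DESeq2 called 1 and the likelihood ratio test 0 at 8 weeks, and each called 1 over all mice. For a change between age groups DESeq2 called 1. At 10 weeks, at 5 or 30 weeks and for 8 and 10 weeks together the count was 0 under every alternative run, and it was 0 with each mouse left out in these comparisons, at 8 weeks and for the change between age groups. Replicate numbers are shared between genotypes at 8 and 10 weeks, and the labels do not say what a shared number means. Same-numbered mice had correlations of deviations from 0.00 to 0.22, not all over 0.1. With so few mice these values cannot decide whether same-numbered mice share a litter or a day, and the main fits left them unpaired. With the replicate block the count was 1 at 8 weeks (age alone), 0 at 10 weeks (age alone) and 0 for both ages.

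Of 28 results for single receptors, 279 of 295 alternative values kept their direction and side of the threshold, 16 passed it and 0 changed sign. The ratio of the highest to the lowest group mean of the summed level was 1.31 with TMM, 1.47 with library totals and 1.20 as a share of receptor counts (1.27 to 1.40 with each mouse left out). The median spread was 0.47, 0.49 with a prior count of 0.5 and 0.48 as a share of receptor counts (0.46 to 0.49 with each mouse left out). The median correlation over pairs was 0.0866, 0.0296 with the receptor mean of each mouse taken out, and 0.0872 without Olfr138, Olfr94, Olfr107 and Olfr111 (0.0726 to 0.0980 with each mouse left out). Leaving each mouse out, and the last set of 4 receptors, were chosen for these 3 descriptions after seeing the data. The cause of these differences was not tested. At the depth of these libraries a receptor at 0 may have up to 3 counts.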
